A study of Mus musculus with 24 samples.

Results

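The 10 genes described here were chosen because their total or polysomal RNA separated fibroblasts with 1 intact Eif4e allele from wild-type fibroblasts most consistently once both had been transformed with Ras and Myc. They are Cadm1, Pxdc1, Enthd1, Fer1l6, Pip5k1b, Rnf213 and Csta2, which read lower in the transformed Eif4e+/- cells, and Ahi1, S100g and Asxl3, which read higher. These 10 genes, with 11 probe sets (Rnf213 has 2), were among 19661 genes with a symbol and 14830 genes kept after a filter on dim probe sets. The genotype difference in transformed cells chose them, so the members were selected on it, and it is described below without a test. Tests are given for other contrasts. The genotype test in untransformed cells used no array of the choice, while the transformation test shares the transformed cultures with it.

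The cells were mouse embryonic fibroblasts, mixed connective tissue cells grown from 6 mouse E13.5 embryos, of which 3 were wild type (WT) and 3 were Eif4e+/- (Het). Cells of each embryo were studied as early passage untransformed cultures and as matched cultures transformed by Ras and Myc, all in exponential growth in 10% serum, which made 12 cultures. How Ras and Myc were introduced, and whether the transformed cells were clones or pools, is not given in the sources used here. From each culture 1 array measured total cellular RNA and 1 array measured RNA of the heavy polysome fractions of a 10 to 50% sucrose gradient, prepared after cycloheximide at 100 µg/ml, so that 24 arrays formed 8 groups of 3. Values are log2 RMA intensities, where a difference of 1 is a doubling, and a value belongs to its probe set, so that levels of different genes cannot be ranked by it.

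Eif4e encodes the protein that binds the cap of mRNAs and brings them to the ribosome. It is kept in check by binding proteins, and both Ras signalling and Myc are known to raise its activity or amount, which is why cells with less of it have been studied under oncogenic transformation. The 10 genes do not form a known pathway. Pip5k1b makes the membrane lipid PI(4,5)P2, Enthd1 carries the ENTH fold by which clathrin adaptors bind such lipids, and Pxdc1 carries a PX domain, another lipid-binding fold. Fer1l6 belongs to the ferlins, membrane proteins with C2 domains, and Cadm1 is an immunoglobulin-type adhesion molecule of cell contacts. Rnf213 is a very large ubiquitin ligase known as an interferon-induced gene, and Csta2 is one of the mouse stefins, inhibitors of cathepsin-type proteases that lie as near-identical copies in 1 gene cluster. Ahi1 works in the transition zone of the primary cilium, S100g is the calcium-binding protein calbindin-D9k, and Asxl3 is a chromatin protein of the family that activates the deubiquitinase Bap1.

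Eif4e itself, the targeted gene, read lower in total RNA of Het cells in each state on the brighter of its 2 probe sets. In untransformed cells that probe set was at 9.10 ± 0.10 (SD, n = 3) in WT and 8.80 ± 0.10 in Het, or 81.3% of WT, and in transformed cells it was 9.62 ± 0.20 and 9.05 ± 0.19, or 67.2% of WT (exact two-sided permutation p = 0.1 in each state, the smallest that 3 against 3 allows). The second probe set was at 7.77 ± 0.06 in WT and 7.66 ± 0.19 in Het before transformation and at 7.87 ± 0.04 and 7.70 ± 0.14 after it, with overlapping cultures in both states. On polysomes the brighter probe set had a Het minus WT difference of -0.21 in untransformed and -0.53 in transformed cells (exact two-sided permutation p = 0.2 and 0.4). There the second probe set read 4.07 ± 0.38 in WT and 3.72 ± 0.09 in Het before transformation, with cultures that did not overlap. After transformation it read 4.18 ± 0.24 and 3.99 ± 0.22, with overlapping cultures. Of 12 fibroblast markers 11 were above the background range in all 3 cultures of every group. Their summed log2 level was 14.7 to 14.8 in untransformed Het and 14.8 in untransformed WT cultures, and 13.9 to 14.3 in transformed WT and 14.01 to 14.53 in transformed Het cultures. Background was read from sex-linked genes in cells of the sex that should lack them, which gave 28 values per fraction, 4.31 to 6.16 for total and 1.96 to 3.30 for polysomal RNA, a rough guide because probe sets differ. The array with the lowest median correlation to the other arrays of its fraction (0.900) was the polysomal array of untransformed WT embryo 1. Correlations of the remaining arrays reached 0.942 in polysomal RNA, and the total RNA arrays lay between 0.960 and 0.977.

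Transformed WT culture 3 differed from the other transformed WT cultures in single markers of other cell types. Ly6g, a granulocyte surface marker, read 11.3 there against 6.51 and 7.14 in WT cultures 1 and 2, and 5.72 to 7.24 in the Het cultures. Krt19, a keratin of simple epithelia, read 10.6 against 7.05 and 6.97, and the lysosomal protein Cd68 read 11.3 against 9.11 and 9.09. After transformation, the summed log2 level of all 12 macrophage markers was 10.7 to 11.8 in WT and 10.4 to 10.6 in Het cultures. Of these markers, 9 in WT and 8 in Het were above background in all 3 transformed cultures. Adgre1 and Itgam were within background in all transformed WT cultures. The summed level of 12 granulocyte and mast cell markers was 10.0 to 11.8 in WT and 10.0 in Het. Of these, 7 in WT and 6 in Het were above background in all 3 cultures, while S100a8 and Cpa3 were within it. The summed level of 12 epithelial markers was 10.9 to 12.3 in WT and 11.5 to 11.8 in Het. That of 10 endothelial markers was 10.3 in WT and 10.0 to 10.2 in Het, and that of 10 neural markers 10.9 to 11.5 and 11.1 to 11.7. After transformation, culture 1 of each genotype had the lowest Dcn, Thy1 and Pdgfra of its genotype, which are single markers among the 12 listed for fibroblasts. Transformed WT culture 1 had Dcn, a matrix proteoglycan, at 6.18 against 10.1 and 9.89 in WT cultures 2 and 3, and the surface protein Thy1 at 7.20 against 9.05 and 9.06. The growth factor receptor Pdgfra read 7.24 there against 9.34 and 9.32, and the keratin Krt18 read 8.08 against 10.8 and 10.9. Transformed Het culture 1 had Dcn at 6.54 against 9.93 and 8.40, Thy1 at 7.41 against 9.52 and 8.12, and Pdgfra at 7.20 against 10.5 and 8.19. Other fibroblast markers did not set it apart, with Pdgfrb at 9.31 against 9.01 and 7.65 and Col1a1 at 9.85 against 9.87 and 9.22. The summed fibroblast level was 14.07, 14.53 and 14.01 in transformed Het cultures 1, 2 and 3. The part of these markers in the results was not tested, and values without WT culture 1 or 3 are given where they matter.

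**Figure D1:**
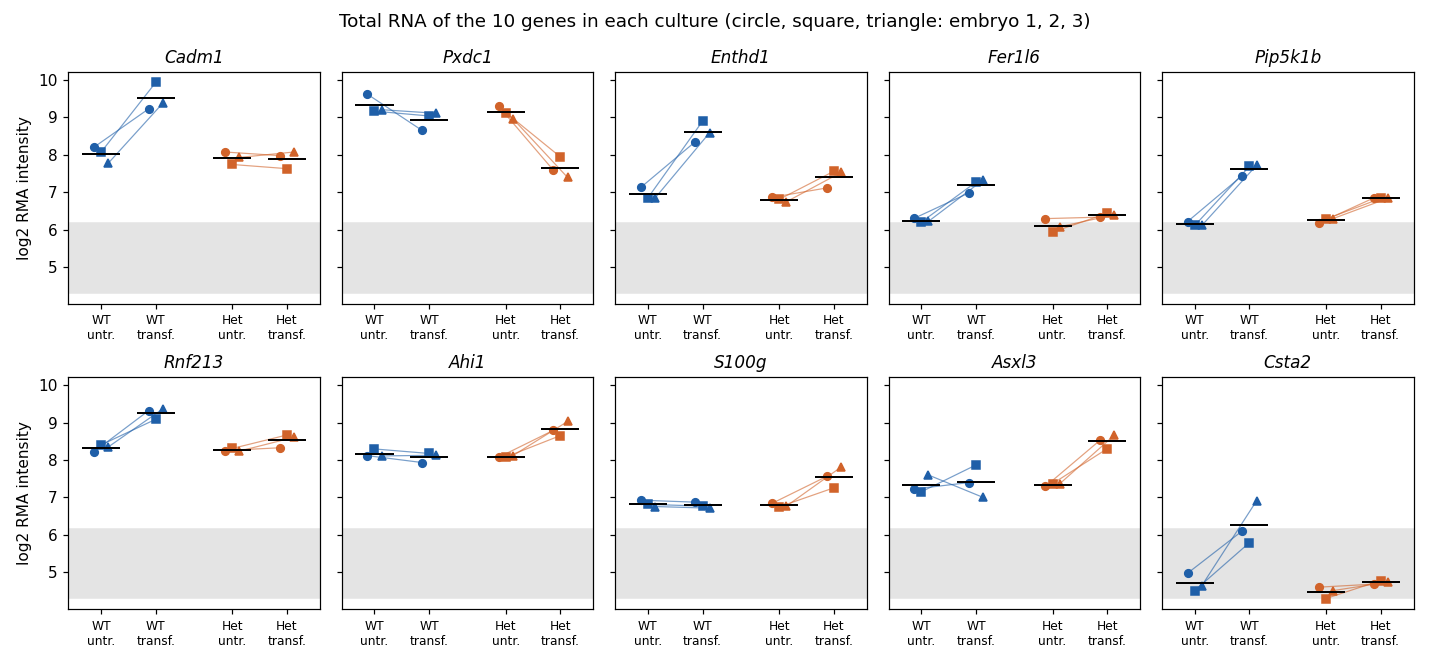
Total RNA (log2 RMA intensity, vertical axis) of the 10 genes in each culture, by genotype and state; each symbol is 1 embryo (circle 1, square 2, triangle 3), thin lines join the states of an embryo, short black lines are group means of 3 cultures and the grey band is the background range of 4.31 to 6.16. Untransformed WT and Het cultures overlapped for every gene, and transformed cultures overlapped for none. Csta2 rose above the grey band only in transformed WT culture 3.

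The clearest pattern was a rise with transformation in WT cells that was smaller, or missing, in Het cells, and 6 of the 7 genes that were low in transformed Het cells showed it. Changes within 1 genotype share the contrast that chose the genes and are given as descriptions, with no test. Cadm1 read 8.20, 8.07 and 7.77 in untransformed WT embryos 1, 2 and 3 and 9.23, 9.94 and 9.38 after transformation, a mean change of 1.50 ± 0.43 (SD of the embryo changes, n = 3) or 2.83-fold. Het cultures had Cadm1 at 8.07, 7.74 and 7.93 before and 7.98, 7.63 and 8.08 after, a mean change of -0.02 ± 0.14. All 3 WT cultures therefore rose above every Het culture, while the Het cultures stayed where they had been, so transformed Het cells held 32.5% of the WT level. In bulk RNA, fewer cells that express a gene and less RNA per cell cannot be told apart.

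Enthd1 rose in both genotypes, more in WT. Its WT cultures went from 7.13, 6.85 and 6.84 to 8.36, 8.90 and 8.59, a change of 1.68 ± 0.42 or 3.20-fold. Its Het cultures went from 6.86, 6.81 and 6.74 to 7.11, 7.56 and 7.53, a change of 0.60 ± 0.30 or 1.51-fold. The highest transformed Het culture stayed below the lowest transformed WT culture, and the transformed Het level was 43.0% of WT. Pip5k1b moved from 6.22, 6.11 and 6.11 to 7.45, 7.69 and 7.72 in WT (1.47 ± 0.21) and from 6.18, 6.28 and 6.30 to 6.85, 6.83 and 6.84 in Het (0.59 ± 0.07). It thus reached 58.2% of the WT level in transformed Het cells. Before transformation only 1 of 3 WT cultures stood above the background range for Pip5k1b, and 3 of 3 Het cultures did by a small margin. No fold is therefore given for the change in either genotype.

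Fer1l6 and Rnf213 changed by similar amounts in WT cells, 0.95 ± 0.24 and 0.94 ± 0.22 on the log2 scale. Fer1l6 read 6.30, 6.20 and 6.22 in untransformed and 6.98, 7.27 and 7.33 in transformed WT cultures. In Het cultures Fer1l6 read 6.29, 5.93 and 6.07 and then 6.33, 6.44 and 6.40, a change of 0.29 ± 0.24, which left it at 57.3% of the WT level and close to the top of the background range. Rnf213 went from 8.22, 8.41 and 8.35 to 9.32, 9.09 and 9.37 in WT, and from 8.26, 8.31 and 8.24 to 8.33, 8.67 and 8.61 in Het (0.27 ± 0.17), or 60.5% of the WT level after transformation. Its second probe set gave the same order with a smaller step in WT, 8.15, 8.28 and 8.33 to 9.02, 8.63 and 8.90 (0.60 ± 0.26), against 8.19, 8.12 and 8.24 to 8.46, 8.38 and 8.38 in Het (0.23 ± 0.07). No Het culture reached a WT culture on either probe set after transformation.

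Csta2 was dim on most arrays. It read 4.98, 4.51 and 4.64 in untransformed and 6.11, 5.79 and 6.91 in transformed WT cultures, a change of 1.56 ± 0.62. In Het cultures Csta2 read 4.60, 4.30 and 4.51 and then 4.68, 4.78 and 4.74, a change of 0.26 ± 0.20. All Het values and all untransformed WT values lay within or just below the background range, and only transformed WT culture 3 exceeded it. The 34.4% ratio of Het to WT is therefore not a measured level in Het cells. Without embryo 3 of WT, the culture with high Ly6g, Krt19 and Cd68, the WT change was 1.21 and the genotype difference in transformed cells was -1.22 in place of -1.54. Probes for Csta2 may also catch its near-identical stefin copies, so its identity is uncertain.

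Pxdc1 was the 1 low-in-Het gene that transformation lowered. It read 9.62, 9.17 and 9.21 in untransformed and 8.65, 9.04 and 9.11 in transformed WT cultures, a change of -0.40 ± 0.49 that came mostly from embryo 1. Without that embryo, the one with low Dcn, Pdgfra, Thy1 and Krt18 after transformation, the WT change was -0.11. In Het cultures Pxdc1 read 9.30, 9.13 and 8.97 and then 7.59, 7.94 and 7.40, a change of -1.49 ± 0.27, to 0.356 of the untransformed level. Every Het embryo fell by more than the WT embryo that fell most, and transformed Het cells held 40.9% of the WT level.

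The 3 genes that were higher in transformed Het cells read higher after transformation in every Het embryo, while their WT means moved by 0.10 or less. Ahi1 read 8.12, 8.30 and 8.11 and then 7.93, 8.18 and 8.13 in WT (-0.10 ± 0.10), against 8.07, 8.08 and 8.12 and then 8.79, 8.65 and 9.03 in Het (0.74 ± 0.17, or 1.67-fold). S100g read 6.93, 6.82 and 6.76 and then 6.87, 6.77 and 6.71 in WT (-0.05 ± 0.0044), against 6.84, 6.75 and 6.77 and then 7.56, 7.26 and 7.81 in Het (0.76 ± 0.27, or 1.69-fold). For both genes each Het embryo rose and the transformed genotypes were separate, with Het at 168% of WT for Ahi1 and 169% for S100g. Asxl3 was more variable in WT, with 7.23, 7.15 and 7.60 before and 7.40, 7.87 and 7.00 after (0.10 ± 0.66), 2 embryos up and 1 down. In Het it went from 7.29, 7.37 and 7.37 to 8.53, 8.31 and 8.67 (1.16 ± 0.19, or 2.23-fold), and the transformed Het level was 211% of WT. S100g lies on the X chromosome. By Xist and the Y-linked genes, WT embryo 2 and Het embryo 3 had the male pattern in both states, so each genotype held 1 male and 2 female embryos.

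**Figure D2:**
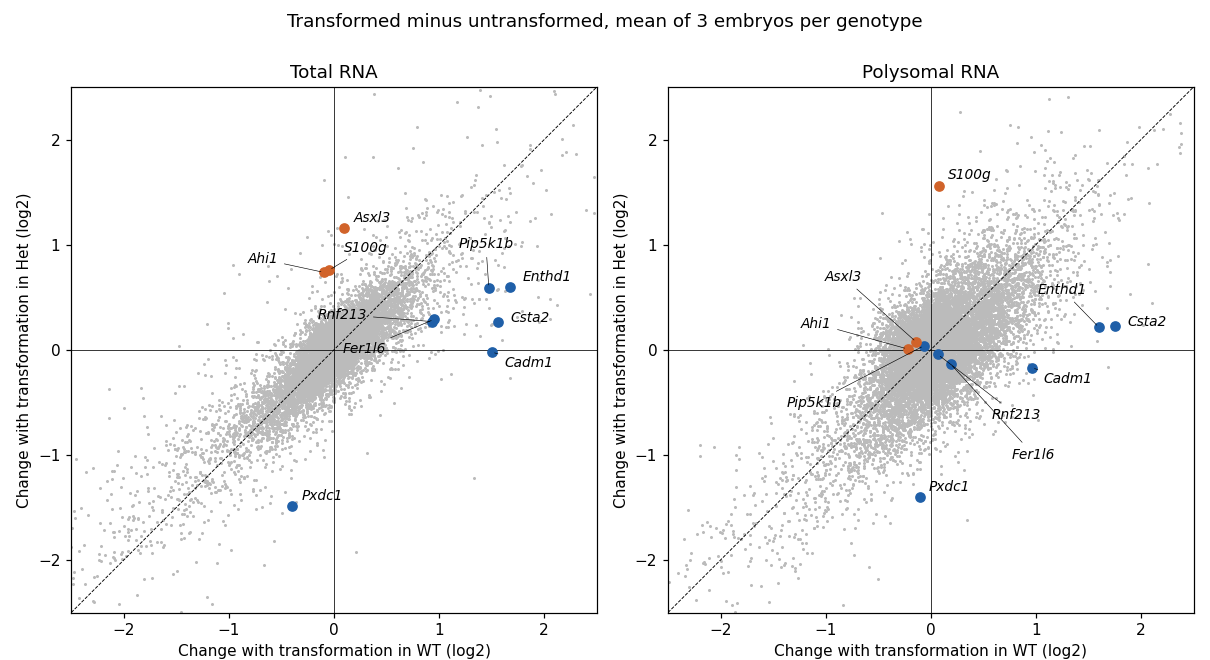
Change with transformation (transformed minus untransformed, log2, mean of 3 embryos) in WT on the horizontal and in Het on the vertical axis, for total RNA (left) and polysomal RNA (right); grey points are the 14830 genes kept (points beyond the axes are not drawn), blue points the 7 genes lower and orange points the 3 genes higher in transformed Het cells, and the dashed line marks equal change. In total RNA, 6 blue genes lie far to the right and below the line, Pxdc1 lies low on the left, and the orange genes lie above the line near 0 on the WT axis.

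The promoters of genes whose transformed genotypes were separate in both total and polysomal RNA are shown where the RefSeq promoter table held them, since those are the members with the most complete pattern. They are the 250 bases before the start of Enthd1 (chr15:80560471-80560720, minus strand), Csta2 (chr16:36221312-36221561, plus strand), Pxdc1 (chr13:34652682-34652931, minus strand) and S100g (chrX:162964600-162964849, minus strand). Sequences are from RefSeq on GRCm38.p6, written 5′ to 3′ on the gene's strand, and capitals mark matches on either strand to common core promoter motifs. These are the letters TATAAA of the TATA box. They are also the letters CCAAT of the CCAAT box, and the letters GGGCGG of the GC box.
Enthd1: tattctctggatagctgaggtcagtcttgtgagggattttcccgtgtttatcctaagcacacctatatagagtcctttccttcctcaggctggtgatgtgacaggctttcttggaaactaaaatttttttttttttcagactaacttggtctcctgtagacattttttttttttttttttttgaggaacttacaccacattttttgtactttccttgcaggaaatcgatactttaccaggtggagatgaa
Csta2: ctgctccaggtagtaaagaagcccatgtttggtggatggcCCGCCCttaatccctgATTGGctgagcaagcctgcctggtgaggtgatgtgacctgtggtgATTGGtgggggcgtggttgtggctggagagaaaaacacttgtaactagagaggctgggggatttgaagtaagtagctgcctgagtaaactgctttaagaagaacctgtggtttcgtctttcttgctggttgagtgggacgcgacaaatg
Pxdc1: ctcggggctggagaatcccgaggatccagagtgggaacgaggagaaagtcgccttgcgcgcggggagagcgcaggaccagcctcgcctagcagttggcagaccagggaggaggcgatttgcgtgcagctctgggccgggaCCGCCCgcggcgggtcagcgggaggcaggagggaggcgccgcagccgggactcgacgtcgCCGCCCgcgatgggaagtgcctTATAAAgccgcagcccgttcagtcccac
S100g: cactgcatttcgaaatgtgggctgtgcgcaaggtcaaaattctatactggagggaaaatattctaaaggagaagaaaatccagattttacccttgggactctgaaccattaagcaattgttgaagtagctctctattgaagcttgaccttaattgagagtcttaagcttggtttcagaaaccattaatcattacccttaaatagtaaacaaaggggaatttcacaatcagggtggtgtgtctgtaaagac
Pxdc1 is the GC-rich one of the 4 (69.6% G or C), with a TATA box 28 bases before the start and GC boxes 110 and 50 bases before it. Csta2 (51.6%) has CCAAT boxes 194 and 149 bases before the start and a GC box 210 bases before it. Enthd1 (37.2%) and S100g (38.4%) are rich in A and T and hold none of these letters. The TATA letters occur in 12.4%, the CCAAT box in 33.8% and the GC box letters in 32.7% of the 32851 promoters of the same length in the table. Rnf213 (65.2% G or C) has GC boxes 204 and 39 bases before its start. Ahi1 has GC boxes 108 and 90 bases before the first of its 2 listed starts and a CCAAT box 25 bases before the second. The Myc-type E-box (CACGTG) was searched on both strands, and so were the letters of the AP-1 motif (TGANTCA). Both were in 0 windows of the 6 members for which promoters were listed, and in 6.02% and 6.75% of all promoters. No promoter was found for Cadm1, Fer1l6 or Pip5k1b. The chromosome of Asxl3 was left out when the promoters of members were listed, so Asxl3 was not searched.

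Polysomal RNA repeated the genotype pattern for 5 of the 10 genes. Enthd1 read 4.0, 3.93 and 3.54 in untransformed and 5.10, 5.63 and 5.54 in transformed WT polysomes (1.60 ± 0.46, or 3.03-fold). Its Het polysomes held 3.72, 3.92 and 3.43 and then 4.10, 3.95 and 3.66 (0.21 ± 0.17), which left 34.9% of the WT level. In total RNA the Het change was 0.60. Each fraction was normalised to a level of its own, so nothing is read from a contrast of the 2 sizes. Csta2 read 2.71, 2.51 and 1.94 and then 4.24, 3.68 and 4.49 in WT polysomes (1.75 ± 0.72, or 1.35 without embryo 3), against 2.23, 2.38 and 2.17 and then 2.49, 2.44 and 2.53 in Het (0.23 ± 0.15). Only the transformed WT arrays, 3 of 12, stood above the polysomal background range for Csta2.

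Pxdc1 on polysomes read 5.68, 6.14 and 6.23 and then 5.62, 6.21 and 5.91 in WT (-0.11 ± 0.20), against 6.53, 6.18 and 5.82 and then 4.86, 4.69 and 4.78 in Het (-1.40 ± 0.32). In total RNA the Het change was -1.49, so Pxdc1 fell in Het cells in both fractions. S100g read 3.72, 3.26 and 2.94 and then 3.41, 3.37 and 3.37 in WT polysomes (0.08 ± 0.37), against 3.20, 3.11 and 3.24 and then 4.49, 4.20 and 5.54 in Het (1.56 ± 0.65). Before transformation 0 of 3 Het arrays and 1 of 3 WT arrays stood above the polysomal background range for S100g, and all transformed arrays did. Het embryo 3 was the highest S100g culture in both fractions, and without it the Het change on polysomes was 1.19. Cadm1 read 4.01, 4.19 and 4.02 and then 4.82, 5.94 and 4.33 in WT polysomes (0.96 ± 0.73), against 4.62, 3.94 and 4.04 and then 4.22, 3.78 and 4.08 in Het (-0.17 ± 0.23). Its transformed WT arrays spread widely, and the lowest, embryo 3, was only just above the highest Het array.

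The other 5 genes gave overlapping genotypes on polysomes, with Het minus WT in transformed cells from -0.23 (Fer1l6) to 0.23 (Ahi1). Ahi1 was above the polysomal background range on 12 of 12 arrays, at 3.65, 3.71 and 3.44 in transformed WT and 4.01, 3.67 and 3.82 in transformed Het cultures. It is the 1 member of these 5 above that range on every polysomal array. Its lowest array, 3.44, was still close to the top of the range, 3.30, which is a rough guide. The change of Ahi1 in Het cells was 0.01 ± 0.09 on polysomes against 0.74 ± 0.17 in total RNA. With so dim a polysomal signal, nothing is read from that contrast. Fer1l6 was above background on 0 of 12 polysomal arrays, Pip5k1b on 1, and Asxl3 and the brighter probe set of Rnf213 on 4 each, all at or below 3.51. The second probe set of Rnf213 read 2.70 to 3.76 on polysomes. For these 4 genes a polysomal difference was not detectable at this signal.

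**Figure D3:**
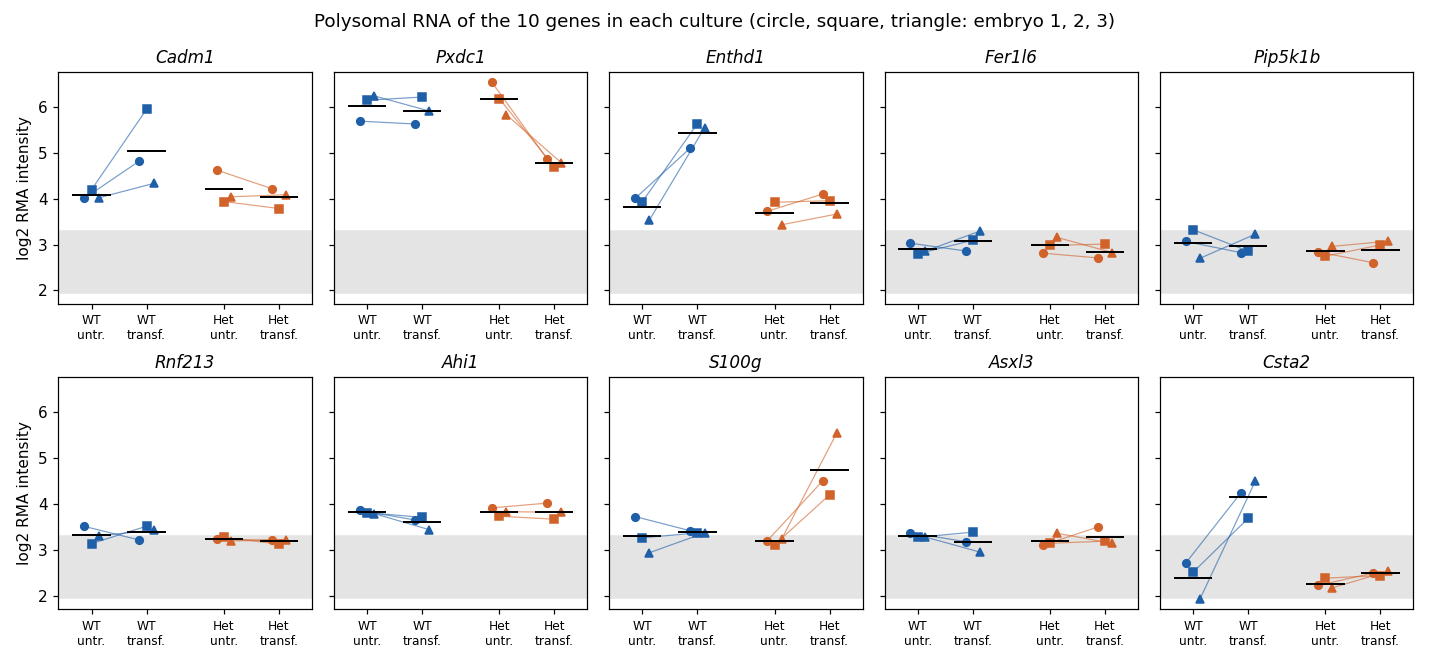
Polysomal RNA (log2 RMA intensity, vertical axis) of the same genes, drawn as for total RNA, with the polysomal background range of 1.96 to 3.30 in grey. Transformed WT and Het cultures are separate for Cadm1, Pxdc1, Enthd1, S100g and Csta2, while Fer1l6, Pip5k1b, Rnf213 and Asxl3 lie in or near the grey band.

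Because these differences chose the genes, their place among all genes is given as a description. Ranked by limma's p for Het minus WT in total RNA of transformed cells, the genes held ranks 1 to 7 (Pip5k1b, Cadm1, Enthd1, Fer1l6, Pxdc1, Ahi1 and Rnf213), 10 (Csta2), 11 (S100g) and 23 (Asxl3). In polysomal RNA, Enthd1 and Csta2 held ranks 1 and 2, and Pxdc1 and S100g ranks 5 and 6. The nearest genes outside the set were Arhgef7 (rank 8 in total RNA, difference -0.67), Egln3 (rank 9, -1.50, and rank 3 in polysomal RNA, -1.48) and Tagln (rank 4 in polysomal RNA, 2.20). Non-overlapping cultures in transformed cells occurred for 10 of 10 members in total and 5 of 10 in polysomal RNA, and for 10.2% and 8.51% of all genes. An adjusted p under 0.05 in this contrast occurred for 0.0472% of all genes in total and 0% in polysomal RNA. Nothing is read from these shares, since the rule used them.

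Whether transformation itself moved the genes was tested as the mean change over both genotypes, with limma and the embryo as a block. In total RNA the mean change passed an adjusted p under 0.05 for all 10 members, 9 higher and 1 lower, where 15% of all genes were called higher and 15.8% lower. The filter on dim probe sets was met by Fer1l6 and Csta2 only through transformed WT arrays, and by Pip5k1b through 5 arrays, 3 of them transformed WT. The count of these genes is therefore no support, and the choice of genes also favoured transformed cultures with a small spread. The other 7 members were called as well, but the test used the same transformed cultures that chose them. Their calls are therefore no independent support, and the same holds for polysomal RNA and efficiency below. The median change of all 14830 genes was 0.03. Enthd1 changed by 1.14 ± 0.12 (SE, adjusted p = 0.0011) and Pip5k1b by 1.03 ± 0.07 (adjusted p = 0.00025) in limma's test, the largest of the set together with Pxdc1, which fell by 0.94 (SE 0.13, adjusted p = 0.0028). Csta2 (0.91), Cadm1 (0.74), Fer1l6 (0.62) and Rnf213 (0.60) followed. Asxl3 (0.63 ± 0.16), S100g (0.36 ± 0.07) and Ahi1 (0.32 ± 0.06) had limma adjusted p-values of 0.025, 0.012 and 0.0095. Asxl3 lost its call when embryo 1 of WT, or embryo 1 or 3 of Het, was left out (limma adjusted p = 0.073, 0.080 and 0.086).

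A mean over genotypes hides how unequal they were. For Asxl3 nearly the whole mean came from Het cells, and for Cadm1 the whole of it came from WT cells. For Ahi1 and S100g only Het cells rose, while the WT means moved slightly down (-0.10 and -0.05). The difference of the changes between genotypes contains the contrast that chose the genes and was not tested.

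On polysomes the mean change passed limma's adjusted p under 0.05 for 4 members, of which 3 rose and 1 fell, against 3.67% of all genes called higher and 4.05% lower. Enthd1 rose by 0.91 ± 0.15 (SE, adjusted p = 0.012), Csta2 by 0.99 ± 0.19 (adjusted p = 0.019) and S100g by 0.82 ± 0.19 (adjusted p = 0.039), all by limma. Pxdc1 fell by 0.75 ± 0.14 (limma adjusted p = 0.016). Cadm1 changed by 0.39 ± 0.19 and did not pass (limma adjusted p = 0.29), with a range of 0.20 to 0.56 when 1 embryo was left out. Its change in WT polysomes, 0.96, was 0.56 without WT embryo 2. The remaining 5 genes had mean changes from -0.11 (Ahi1) to 0.03 (Fer1l6). Calls on polysomes rested on few cultures: without Het embryo 1 limma called 0 of the 10 members, without Het embryo 2 or Het embryo 3 it called 1, and without WT embryo 3 it called 5, then with Cadm1 (0.56, adjusted p = 0.046).

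Translational efficiency, the log2 polysomal value minus the log2 total value of a culture, has no absolute scale here because each fraction was normalised to a level of its own. Its mean change with transformation was called by limma for 1 member, Pip5k1b (-1.04 ± 0.17, adjusted p = 0.015), where 1.81% of all genes were called higher and 0.971% lower. Pip5k1b was within the polysomal background range on 11 of 12 arrays, with a polysomal change of -0.01, so the value is close to its total RNA change (1.03) with the sign turned. The call was lost when embryo 2 of WT or any 1 of the Het embryos was left out (0 members called), and 3 members were called without WT embryo 3. Fitted with no block for the embryo, 4 members were called. In transformed cells Asxl3 had the lowest Het minus WT efficiency (-0.97) and Pip5k1b the highest (0.70), both with polysomal values near background, while Enthd1 (-0.30), Pxdc1 (0.15) and Csta2 (-0.12) had overlapping cultures. The other 7 members had cultures that did not overlap, beside 8.3% of all genes, and nothing is read from that share, since the rule used this contrast. Of these 7, Cadm1 (0.62) was higher and Ahi1 (-0.51) lower in Het cells with polysomal values above background on 12 of 12 arrays. Ahi1 was above it by a small margin on its lowest array. S100g was higher in Het cells (0.61). Values spread less within polysomal arrays (SD 1.15 to 1.44) than within total RNA arrays (SD 1.71 to 1.81). The part of this in the efficiency differences was not tested, and none of them is read as a change in translation.

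Before transformation the genotypes did not separate for any of the 10 genes. In total RNA of untransformed cells Het minus WT ran from -0.24 (Csta2) to 0.11 (Pip5k1b), with standard errors of 0.07 to 0.14, and limma called 0 of 10 members (adjusted p from 0.88 to 0.99). The median size of the difference was 0.10, against 0.07 over all genes. Of all genes 0% were called, in total, polysomal or efficiency values, and unadjusted p-values under 0.05 numbered 748, 175 and 173 genes. Limma with trend and robust settings, with array weights, or on all 12 cultures also called 0 genes in each. The WT and Het cultures overlapped for every member in both fractions, while 10.9% of all genes in total and 5.74% in polysomal RNA had cultures that did not overlap. On polysomes the differences of the members ran from -0.18 to 0.16 (standard errors 0.17 to 0.24). A value that misses the threshold with 3 embryos a genotype does not show equal levels. In untransformed total RNA, Csta2 was above background in 0 of 3 cultures of each genotype, Fer1l6 in 1 of 3 Het and Pip5k1b in 1 of 3 WT cultures. On untransformed polysomes Fer1l6, Pip5k1b, Rnf213, S100g, Asxl3 and Csta2 were mostly within the background range. At such levels a difference could hardly be detected, so nothing is read from the overlap there.

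**Figure D4:**
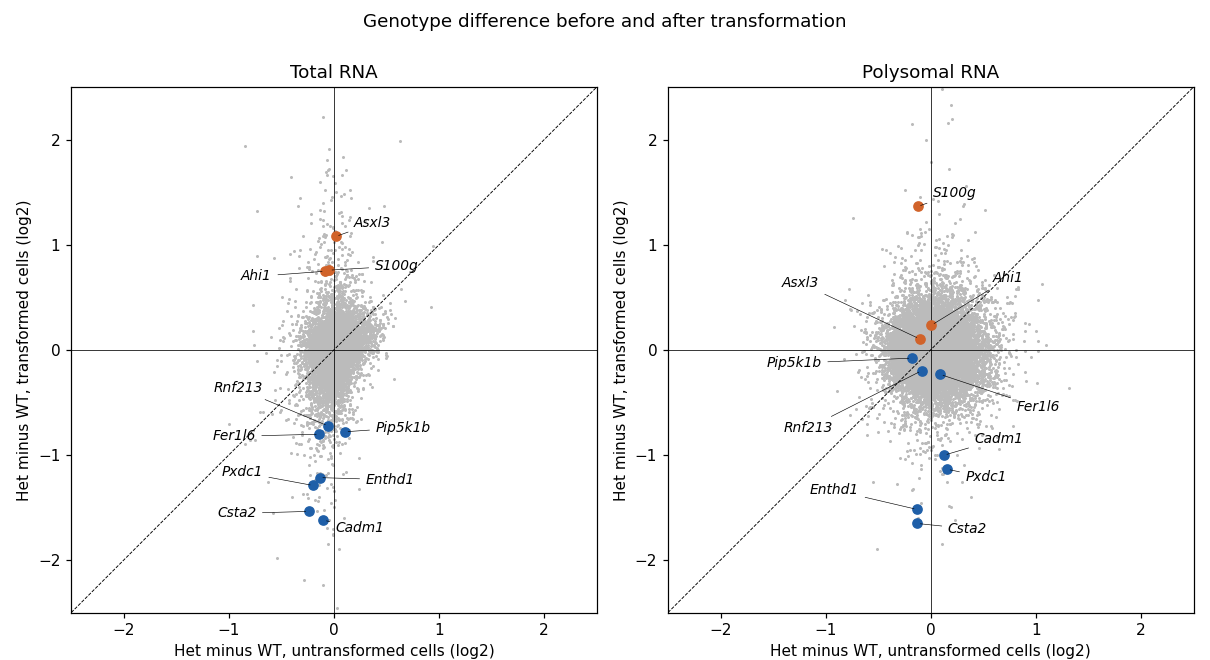
Het minus WT (log2) in untransformed cells on the horizontal and in transformed cells on the vertical axis, for total RNA (left) and polysomal RNA (right), means of 3 cultures a group; grey points are the 14830 genes kept (points beyond the axes are not drawn), blue and orange points the members lower and higher in transformed Het cells, and the dashed line marks equal differences. The members lie within 0.24 of 0 on the horizontal axis and spread from -1.62 to 1.08 on the vertical axis in total RNA; their vertical positions are what chose them.

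Relatives of the members, listed by family or role, are given as a description for the genotype difference. Limma called 0 relatives in any of the 9 lists in transformed cells, in either fraction. That was fixed in advance, since the 7 genes called in total RNA (0.0472% of all genes) were all members. On polysomes 0% of all genes were called. The ranges of differences given next are for total RNA. Of the other PIP kinases, 7 measured, Pip5k1a was 0.29 lower in transformed Het cells with non-overlapping cultures (-0.29, adjusted p = 0.42), and -0.56 on polysomes. The 6 other Cadm and nectin adhesion genes ranged from -0.23 to 0.22, the 3 other ferlins from -0.08 to 0.07, and the 7 other ENTH or ANTH adaptors from -0.18 to 0.09. Of the 12 other genes of the S100 list (S100pbp, an S100-binding protein, among them) the range was -0.42 to 0.25 (on polysomes -0.79 to 0.48, with S100a1 at -0.79 and S100a13 at -0.75, cultures that did not overlap and limma adjusted p = 1.0 for both), of 3 cystatins (Cstb, Cst3 and Cst6) -0.17 to -0.05, and of Asxl1, Asxl2 and Bap1 -0.06 to 0.11. The 15 other transition zone genes ranged from -0.30 to 0.29. The widest spread in total RNA was among 15 other interferon-responsive genes, where the RNA sensor Ddx58 was at -0.90 (SE 0.38, adjusted p = 0.50) with overlapping cultures.

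Several relatives did change with transformation, where 15% of all genes were called higher and 15.8% lower. Nothing is read from the direction of single calls. Among adhesion genes, limma called 3 of 6 lower in total RNA, Nectin2 (-0.75), Nectin3 (-0.59) and Nectin1 (-0.24), and 0 higher, where Cadm1 rose. Dysf, the ferlin of membrane repair, fell by 0.97 and was 1 of 3 ferlins called, where Fer1l6 rose. Of the PIP kinases 2 of 7 were called, Pip4k2a (-1.02) and Pip5k1a (-0.21), both lower, where Pip5k1b rose. Of the interferon-responsive genes 4 of 15 were called lower, Irgm1 (-1.82), Ddx58 (-0.78), Ifih1 (-0.56) and Oasl2 (-0.51), and 0 higher, where Rnf213 rose. Irgm1 (-1.78) and Ddx58 (-0.89) were lower on polysomes too.

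Of the 15 other transition zone genes limma called 5 higher and 0 lower in total RNA, and 10 did not pass. Cep290, a scaffold of the ciliary gate, rose by 0.58, B9d1 by 0.43, Tmem216 by 0.27, Iqcb1 by 0.22 and Tctn1 by 0.18. Of the S100 genes S100a5 rose (0.52) and S100a16 fell (-0.26), and of the cystatins Cst3 fell (-0.41), while 0 of 7 ENTH or ANTH genes and 0 of 3 Asxl and Bap1 genes were called. These shares stand beside 15% of all genes called higher and 15.8% lower. Most of the stefin copies did not pass the filter on dim probe sets, since 3 of 14 other listed cystatin genes were measured.

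The genes next to the members on the chromosome are given as a description. They are 40 neighbours, the nearest 2 measured genes on each side of every member in RefSeq gene order. Limma called 0 of the 40 for Het minus WT in total RNA of transformed cells. That 0 was fixed in advance, since the only 7 genes called there (0.0472% of all genes) were members. Differences of the neighbours ran from -0.50 (Tnrc6b, beside Enthd1) to 0.27 (Pde7b, beside Ahi1), with a median of 0.02. Cultures did not overlap for 6 of them, 2 higher and 4 lower, beside 10.2% of all genes.

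Across the 12 total RNA arrays the members fell into sets with like profiles, given as a description because the transformed arrays both chose the genes and set these correlations. Enthd1, Fer1l6, Pip5k1b, Rnf213, Cadm1 and Csta2 correlated with each other at Pearson r = 0.83 to 0.97 across cultures. Ahi1, S100g and Asxl3 correlated at 0.88 to 0.94, and Pxdc1 ran opposite to them (-0.89 to -0.91) and apart from the other 6 (-0.28 to 0.19). Outside the set, the genes most like Rnf213 were Arhgef7 (0.98), Camk1d and Wdr60 (each 0.98), and those most like Pip5k1b were Dnttip1 (0.98), Rchy1 (0.98) and Mrpl13 (0.97). Hao1 (0.97) was the nearest such gene to Enthd1, Arap3 (0.97) to Fer1l6, Igsf5 (0.92) to Cadm1 and Ero1a (0.97) to Csta2. As3mt (0.94) was nearest to Pxdc1, Wnt10a (0.91) to Ahi1, Ggt6 (0.91) to S100g and Tarbp1 (0.94) to Asxl3. Arhgef7 read 7.96, 8.20 and 8.21 in untransformed and 9.14, 9.06 and 9.0 in transformed WT cultures, against 8.14, 8.17 and 8.03 and then 8.21, 8.53 and 8.46 in Het, which is the course of Rnf213 in a gene outside the set.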

How the data were processed

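The authors deposited RMA intensities on the log2 scale, per the submitters' processing notes and the labels, from Mouse Gene 1.0 ST arrays (Affymetrix). The RMA version and chip definition are not given in the sources used here. Of 25668 probe sets, 20777 carried 1 gene symbol in the platform annotation, 232 several and 4659 none, and only the first class was used. The brightest probe set stood for each of 564 genes with several. A gene was kept if 3 or more arrays had it above their own 40th percentile. Differences were tested with limma 3.58.1 (lmFit, eBayes) in R 4.3.3, with Benjamini-Hochberg adjustment over all 14830 genes and a threshold of 0.05. Transformation used embryo as a block; the genotype test in untransformed cells used those 6 cultures alone. Fits were tested on simulated data. The pairing comes from the labels, which give both states of an embryo. For states of the same embryo, deviations from group means correlated at 0.125, 0.064 and -0.058 (WT) and 0.045, 0.219 and 0.209 (Het) in total RNA. The labels number Het embryos 1 to 3 but give each as the first biological replicate, and the embryo numbers were used. The members, gene lists and tests were chosen with earlier results of these data known. Genes named were the members, Eif4e, per member the 3 genes most correlated with it and its 2 measured neighbours on each side, called or non-overlapping genes of each list (at most 4), and list markers; Tctn1, the named markers and the genes ranked next to the members were chosen after their values were seen. The number of arrays limits the precision. Alternatives covered the block, limma's trend, robust and array weight settings, quantile normalization, the filter, the probe set rule and each embryo left out.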

Additional observations from a re-analysis of the deposited data

Results flagged for a closer look

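S100g in total RNA stood out because its change with transformation had opposite signs in the genotypes: every WT embryo moved down (changes of -0.052, -0.046 and -0.044) and every Het embryo moved up (0.72, 0.51 and 1.04). The mean Het change exceeded the mean WT change by 0.81 on the log2 scale. The difference was not tested, because it contains the Het minus WT contrast in transformed cells that chose the gene. The WT changes are small beside the spread between WT cultures (SD 0.086 untransformed and 0.082 transformed, n = 3).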

How the results depend on the processing

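In total RNA the 10 calls for the mean change with transformation remained at 10 under the 6 other settings, the fit with no replicate block included, and at 9 to 10 with 1 embryo left out. In polysomal RNA the 4 calls stayed at 4 with no replicate block and ranged from 0 to 5 with 1 embryo left out. For efficiency the 1 call became 4 with no replicate block, 2 with trend and robust settings, 3 with array weights, 2 after quantile normalization, and 0 to 3 with 1 embryo left out. The genotype contrast in untransformed cells gave 0 called members under all 13 alternatives in each of total, polysomal and efficiency values. The causes were not tested.

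Signs turned only for differences near 0 that were not called. With array weights, Het minus WT in untransformed total RNA of Asxl3 became -0.059, that of Rnf213 on polysomes 0.0017 (0.072 over the mean of its probe sets), and the polysomal change of Asxl3 with transformation 0.044. Quantile normalization turned the polysomal change of Pip5k1b to 0.015. With 1 embryo left out, Het minus WT in untransformed total RNA of Asxl3 ranged from -0.071 to 0.154. The polysomal changes with transformation ranged from -0.036 to 0.116 for Fer1l6, -0.158 to 0.089 for Pip5k1b, -0.066 to 0.102 for Rnf213 and -0.113 to 0.042 for Asxl3. Het minus WT in untransformed polysomal RNA ranged from -0.085 to 0.257 for Cadm1, -0.019 to 0.333 for Pxdc1, -0.178 to 0.0084 for Rnf213, -0.037 to 0.054 for Ahi1, -0.309 to 0.084 for S100g and -0.352 to 0.035 for Csta2. Signal over background limits Fer1l6, Pip5k1b, Rnf213, Asxl3 and Csta2 on polysomes, S100g on untransformed polysomes, Csta2 in total RNA, and Fer1l6 and Pip5k1b in untransformed total RNA.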
